A study of Gallus gallus with 5 samples.

Results

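The step from the pre-placodal region (PPR) to otic-epibranchial progenitors (OEPs) was read from 2 of the 5 RNA-seq libraries of a chick otic placode series, 1 library of OEPs at the 5-6 somite stage (5-6ss) and 1 of the posterior PPR at HH6 (stage 6 of Hamburger and Hamilton). Both came from untreated Bovans Brown embryos, and each library was a pool of dissected tissue from many embryos. The OEP piece was future otic ectoderm, cut out by the territory that expresses PAX2 after the mesoderm and endoderm had been peeled away, so the presence of PAX2 in it was set by the dissection. The other 3 libraries, placodes at 8-9ss and 11-12ss and a whole embryo at 3ss, are used to place levels and to set locus lengths. They also enter comparisons of the length trend, size factors over all 5 libraries and the choice of locus for symbols on several loci.

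A locus was called higher or lower in OEPs when its normalized count differed more than 1.5-fold and its higher library had over 300 normalized counts and an RPKM (reads scaled to transcript length and library total) over 4. Of 18365 loci with counts, 9253 passed these levels in at least 1 of the 2 libraries. In OEPs, 1665 loci rose (18.0% of those tested), 1746 fell (18.9%), and 5842 stayed within 1.5-fold. Of the loci that rose, 511 were below the levels in the PPR, and of those that fell, 486 were below them in OEPs. Such loci passed only through their higher library and could be called in that direction alone. Among the 8219 tested loci that carry a gene symbol, 1124 rose (13.7%) and 1633 fell (19.9%), and these 2 shares are the background for the gene lists used here. With 1 library a side there is no test and no p-value. "Rose" and "fell" stand for loci past the rule, and the brackets after a fold hold its 95% exact interval, which covers counting error only and not the variation between embryos or dissections. Levels written as a value in OEPs against a value in the PPR are normalized counts. In such bulk tissue, fewer cells of a type and less RNA per cell cannot be told apart.

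The PPR is a band of ectoderm around the anterior neural plate in which precursors of all cranial sensory placodes lie intermingled. EYA co-activators and their DNA-binding partners mark it together with GATA, DLX, TFAP2 and FOXI factors inherited from the non-neural ectoderm. FGF signals from the underlying mesoderm turn its posterior part into OEPs, which are defined by PAX2 and later divide into the otic placode, the source of the inner ear, and the epibranchial placodes, the source of sensory neurons of the cranial ganglia. WNT and Notch signals then favour otic over epidermal and epibranchial fates.

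The libraries differed in depth, with 26858887 counts in OEPs and 136916870 in the PPR. They also differed by locus length: the median log2 change (OEPs minus PPR) was 0.83 over 556 tested loci whose effective length (the length that links the deposited counts to the deposited RPKM) was under 400 bases, 0.25 over 1500 loci of 400 to 1000 bases, 0.03 over 2875 loci of 1000 to 2000 bases and -0.21 over 4321 longer loci. Most of the excess at short loci lay in loci without a symbol, where the median under 400 bases was 2.25 over 274 loci, against 0.30 over the 282 short loci with a symbol. The same order of length classes appeared when each of the other 3 libraries was set against the same HH6 library, which these comparisons share, with medians under 400 bases of 0.50 for the whole embryo, 0.85 at 8-9ss and 0.65 at 11-12ss. OEPs set against the 8-9ss placode had class medians between -0.03 and 0.03. Set against the whole embryo, OEPs had class medians that ran from 0.29 under 400 bases to -0.02 over 2000 bases. Against the 11-12ss placode they ran from 0.16 to -0.03, so a weaker trend in the same order appeared in these pairs without HH6. Subtracting from each locus the median of the 200 tested loci nearest in length gave 1609 loci higher (17.4%) and 1559 lower (16.8%) in OEPs. Of the 1665 loci that rose 1342 kept their call, and of the 1746 that fell 1301 did, while other loci entered. The same correction among loci with a symbol alone gave 1233 higher (15.0%) and 1290 lower (15.7%). The second correction was chosen after seeing the data, and it kept 963 of the 1124 symbols that rose and 1189 of the 1633 that fell. Where it removes the call of a gene named below, or turns the balance of a list, that is given there, and the part of library preparation or read format in this length trend was not tested.

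**Figure D1:**
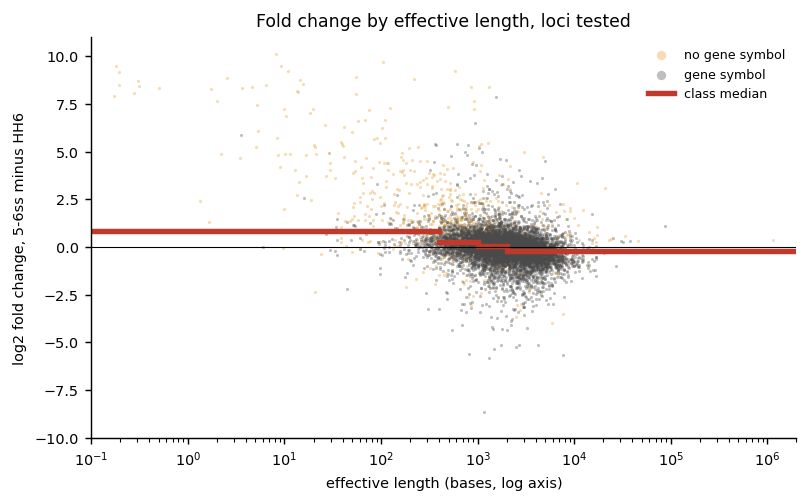
Each point is 1 tested locus, with its effective length in bases on the horizontal log axis and its log2 fold change, 5-6ss OEPs minus HH6 PPR, on the vertical axis. Effective lengths of a few bases belong mostly to loci without a symbol. Loci without a gene symbol are orange, loci with one are grey, and the red bars give the medians of the 4 length classes (0.83, 0.25, 0.03 and -0.21).

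Markers of the dissected ectoderm were high in both libraries. The summed level of 12 surface ectoderm genes was 3635 CPM (counts scaled to one fixed library total) in OEPs and 3197 CPM in the PPR, against 1689 CPM in the whole embryo. Without KRT8 and KRT19 the other 10 summed to 2195 CPM in OEPs and 2313 CPM in the PPR (whole embryo, 1035 CPM). Of the 12, 2 were lower in OEPs than in the whole embryo, and 1 was lower in the PPR. Summed levels of the paraxial mesoderm, cardiac, blood and vessel, endoderm, and notochord and node lists were higher in OEPs than in the PPR. All of these sums were below the whole embryo in both libraries. For the paraxial mesoderm, endoderm, and notochord and node lists the difference lay in 1 or 2 genes. The 14 paraxial mesoderm genes summed to 40.9 CPM in OEPs and 14.6 CPM in the PPR (whole embryo, 459 CPM), but without FOXC2 the other 13 summed to 8.86 CPM in OEPs and 8.26 CPM in the PPR. The 8 endoderm genes summed to 87.3 CPM in OEPs and 27.2 CPM in the PPR (304 CPM), but without APOA1 and TTR the other 6 summed to 5.88 CPM in OEPs and 13.3 CPM in the PPR. The 11 cardiac and lateral mesoderm genes summed to 68.1 CPM in OEPs and 33.9 CPM in the PPR (214 CPM), and without TNNT2 to 39.5 CPM in OEPs and 25.0 CPM in the PPR. The 16 blood and vessel genes summed to 71.5 CPM in OEPs and 11.2 CPM in the PPR (179 CPM), and without LMO2 and CLDN5 to 28.8 CPM in OEPs and 9.40 CPM in the PPR. Of these 16, 9 were lower in OEPs than in the whole embryo, and CLDN5 had 19.6 CPM in OEPs, 0.0292 CPM in the PPR and 1.32 CPM in the whole embryo. The genes left out of these sums were chosen after their values were seen, by the largest difference toward OEPs. The sums without them are therefore shifted toward the PPR by the choice. The members at 0 in OEPs were MESP2, MEOX2, UNCX, HBAA, RHAG, SPI1 and GSC, of which MEOX2, RHAG and SPI1 were at 0 in the whole embryo too. The 6 notochord and node genes summed to 15.9 CPM in OEPs and 11.9 CPM in the PPR against 1132 CPM in the whole embryo, most of it CHRD (10.3 CPM in OEPs and 5.92 CPM in the PPR) and T (4.73 CPM in OEPs and 4.78 CPM in the PPR). Without CHRD, also left out after its values were seen, the other 5 summed to 5.66 CPM in OEPs and 5.95 CPM in the PPR. Neural crest genes, many of which the otic placode also uses, summed to 328 CPM in OEPs and 140 CPM in the PPR (whole embryo, 272 CPM). Without SOX8, also left out after its values were seen, they summed to 176 CPM in OEPs and 135 CPM in the PPR (whole embryo, 267 CPM). The 8 neural tube genes with counts summed to 25.8 CPM in OEPs and 36.5 CPM in the PPR (whole embryo, 111 CPM).

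The set of PPR factors did not move as one. Of 25 members with counts 24 passed the levels, and 13 rose, 5 fell and 6 stayed within 1.5-fold, with a median log2 change of 0.65. The risers and fallers were 54.2% and 20.8% of those tested, against 13.7% and 19.9% of all tested loci with a symbol. Medians of these lists are over members with a mean normalized count of 10 or more, and over all such loci with a symbol the median was -0.09. SIX4, a DNA-binding partner of EYA proteins, did not pass the fold, with 1588 normalized counts in OEPs and 2179 in the PPR. Among the EYA co-activators, EYA4 was 12.3-fold (10.5 to 14.4) higher in OEPs, with 1222 normalized counts against 99.8. EYA2 reached 24684 in OEPs against 4756 in the PPR, which is 5.19-fold higher. EYA1 had 1083 in OEPs against 529 in the PPR and rose 2.05-fold, whereas EYA3 stayed within 1.5-fold at 5162 in OEPs against 6546 in the PPR. The EYA genes thus ran from a 12.3-fold rise in EYA4 to no call in EYA3.

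The GATA pair parted. GATA3, a zinc finger factor required for inner ear development in mammals, rose 4.29-fold (4.16 to 4.43) to 16671 in OEPs against 3883 in the PPR. GATA2, its partner in non-neural ectoderm, fell 6.21-fold (5.80 to 6.66) to 1924 in OEPs against 11952 in the PPR. Per length the pair changed places: OEPs had 86.9 RPKM of GATA3 and 17.2 RPKM of GATA2, and the PPR had 19.0 RPKM of GATA3 and 109 RPKM of GATA2.

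DLX and TFAP2 factors, which mark the border between neural and non-neural ectoderm, also parted. DLX3 rose 6.76-fold (6.40 to 7.13), with 7097 in OEPs against 1050.3 in the PPR. DLX5 fell 1.53-fold, with 5587 in OEPs against 8528 in the PPR. DLX6, which lies beside DLX5, had 4931 in OEPs against 3176 in the PPR and passed the rule at 1.55-fold, but lost the call after the length correction. TFAP2E rose 9.81-fold (8.97 to 10.7) and TFAP2B 1.77-fold, while TFAP2A (18371 in OEPs against 19778 in the PPR) and TFAP2C (10959 in OEPs against 10665 in the PPR) stayed within 1.5-fold.

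FOXI2, a forkhead factor of cranial ectoderm, rose 1.70-fold, with 20592 in OEPs against 12109.6 in the PPR. Iroquois genes went in both directions: IRX4 had 455 in OEPs against 70.9 in the PPR, a rise of 6.41-fold (5.19 to 7.94), IRX1 rose 1.60-fold, and IRX2 fell 2.30-fold, with 1362 in OEPs against 3134 in the PPR. MSX2, a BMP-responsive homeobox gene, fell 1.97-fold, with 331 in OEPs against 653 in the PPR. DACH1 and DACH2, nuclear co-factors related to the SKI family, both stayed within 1.5-fold. KREMEN1, a receptor for DKK inhibitors of WNT signalling, rose 2.39-fold.

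Of 31 otic-epibranchial factors with counts 26 passed the levels, and 17 rose, 4 fell and 5 did not pass the fold. Risers were 65.4% and fallers 15.4% of those tested, against 13.7% and 19.9% of all tested loci with a symbol. The median log2 change was 1.34. PAX2 had 8968 normalized counts in OEPs and 38.1 in the PPR, a difference of 236-fold (190.5 to 295) that the choice of tissue contains. SOHO-1, a homeobox gene of the chick otic placode, rose 31.6-fold (24.3 to 41.5) to 925 in OEPs against 29.3 in the PPR. Both had few normalized counts at HH6, so that their folds rest on few PPR reads.

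A second group was present in the PPR at a higher level and rose. SOX8 had 9332 in OEPs against 329.5 in the PPR and rose 28.3-fold (26.2 to 30.6), and its SOXE relatives rose less, SOX10 by 6.17-fold (889 in OEPs against 144 in the PPR) and SOX9 by 1.95-fold (1661 in OEPs against 851 in the PPR). SOX10 and SOX9 are also neural crest genes. GBX2, a homeobox gene of the posterior ectoderm, had 20512 in OEPs against 947 in the PPR and rose 21.7-fold (20.7 to 22.7). Its effective length was 351 bases, in the class where loci with a symbol had a median log2 change of 0.30. The deposited RPKM of GBX2 gave a log2 change of 3.62, against 4.44 by counts. ETV4, a transcriptional effector of FGF signalling, rose 7.52-fold (7.11 to 7.96), with 6807 in OEPs against 905 in the PPR, and ETV5, its relative, rose 1.64-fold, with 12809.5 in OEPs against 7831 in the PPR. LMX1A, a LIM homeobox gene, rose 6.30-fold (5.78 to 6.87), with 2694 in OEPs against 428 in the PPR, whereas LMX1B fell 1.80-fold, with 1273 in OEPs against 2294 in the PPR.

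The TALE homeobox co-factors MEIS2 (6743 in OEPs against 2391 in the PPR) and MEIS1 (3025 in OEPs against 1339.6 in the PPR) rose 2.82-fold and 2.26-fold. SOX2, a factor of neural and sensory progenitors, fell 2.03-fold, with 448 in OEPs against 907 in the PPR. In the SALL family of zinc finger repressors, SALL1 fell 1.72-fold (20099 in OEPs against 34568 in the PPR), a call that the length correction removed, and SALL3 fell 2.68-fold (338 in OEPs against 906 in the PPR), while SALL4 had 43519.5 in OEPs against 41882 in the PPR. TCF7L2, the nuclear effector of WNT signalling, had 2465 in OEPs against 2295 in the PPR. ZFHX3 had 2440.3 in OEPs against 1879.7 in the PPR, within 1.5-fold before the length correction and past it after.

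The remaining members that rose ran from 1.69-fold for SOX13 to 92.0-fold for PRDM12, with ZNF385C, IRX5 and ZBTB16 between them, and MYB (1097 in OEPs against 1334 in the PPR) and BLIMP-1 (8052 in OEPs against 10710.0 in the PPR) stayed within 1.5-fold.

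Genes of the later otic cup and of the epibranchial placodes were mostly below the levels. HMX1 had 29 reads in OEPs and 0 in the PPR, which against a floor of 3 reads is 50.5-fold higher. HMX3 had 0 reads in OEPs and 74 in the PPR, 4.72-fold lower against the same floor. TBX3, a T-box gene of the otic region, had 683 in OEPs against 196 in the PPR but did not reach an RPKM of 4. Of 8 epibranchial and neurogenic factors with counts, 2 passed and both rose. Both lay below the levels in the PPR and passed only through OEPs, so a rise was the only call open to them. These were the orphan nuclear receptors NR2F1 (359 in OEPs against 17.5 in the PPR, 20.5-fold, interval 14.4 to 29.8) and NR2F2 (791 in OEPs against 129 in the PPR, 6.14-fold, interval 5.24 to 7.20). ISL1, a LIM homeobox gene of sensory neurons, had 542 in OEPs against 177 in the PPR, and the VGLL2 co-factor had 149 in OEPs against 249 in the PPR, both below the levels.

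**Figure D2:**
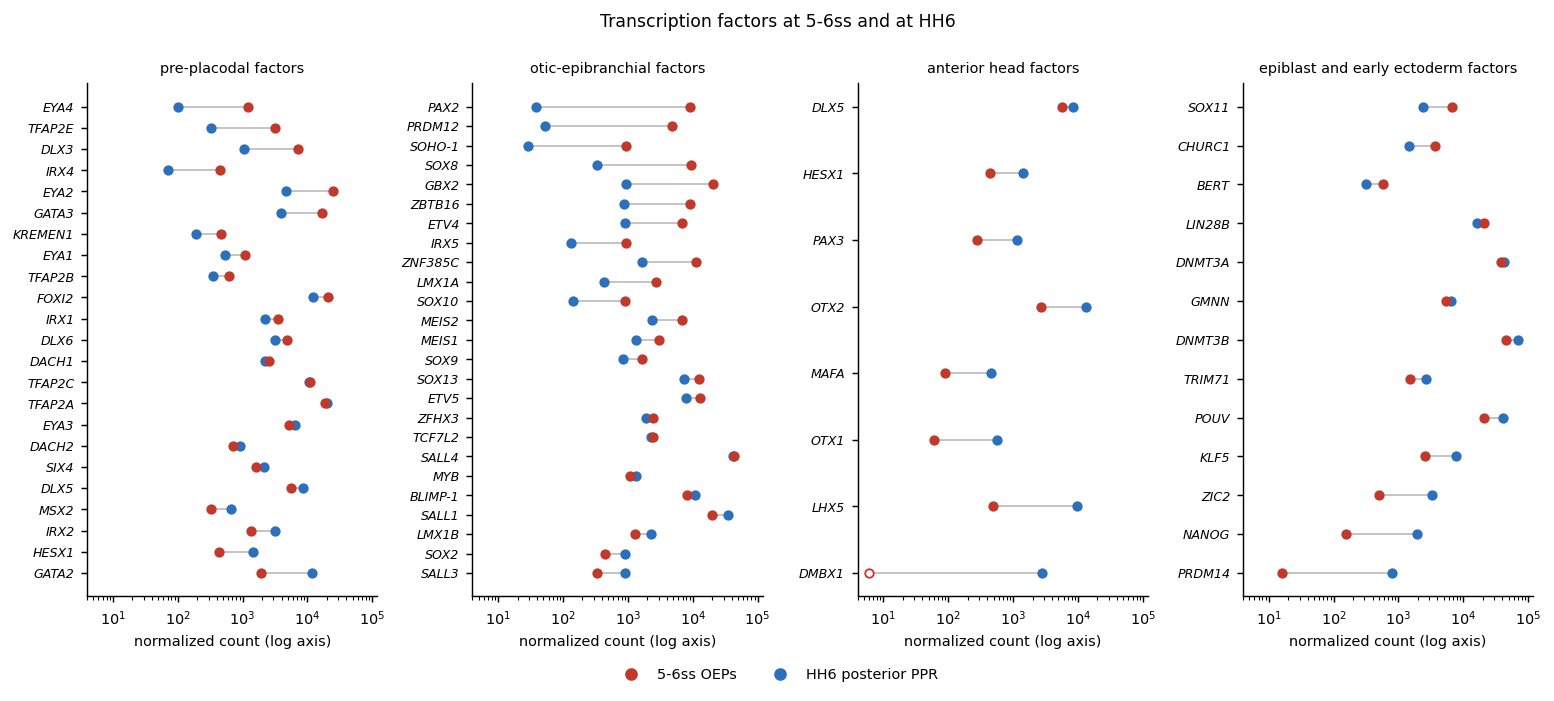
Normalized counts (log axis) of the tested members reported here of 4 transcription factor lists, 5-6ss OEPs in red and HH6 PPR in blue, ordered by fold within each panel; the open circle is a count of 0. Otic-epibranchial genes run from PAX2 (8968 in OEPs against 38.1 in the PPR) to SALL3 (338 against 906), and the 8 anterior head factors drawn, those that fell, lie to the left in OEPs.

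Most tested factors of the anterior head placodes and forebrain were lower in OEPs. Of 24 with counts 9 passed the levels, 8 fell and 1, not reported here, rose, and the median log2 change was -1.27. LHX5, a LIM homeobox gene of the anterior neural plate, had 498 in OEPs against 9742 in the PPR, a fall of 19.6-fold (17.1 to 22.5). OTX2, the homeobox gene of forebrain, midbrain and anterior placodes, fell 5.06-fold (4.78 to 5.37) to 2657 in OEPs against 13458 in the PPR, and OTX1 fell 9.47-fold (6.43 to 14.5), with 59.4 in OEPs against 562 in the PPR. DMBX1, a midbrain homeobox gene, had 0 reads in OEPs and 6433 in the PPR. Against a floor of 3 reads this is 411-fold lower, and its counting interval starts at 334-fold.

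PAX3, a paired box gene of the ophthalmic trigeminal placode and the neural fold, fell 4.12-fold (3.43 to 4.98), with 276 in OEPs against 1139 in the PPR. HESX1, a homeobox repressor of the anterior neural ridge and pituitary, fell 3.29-fold, with 436 in OEPs against 1436 in the PPR. MAFA, a bZIP gene of the chick lens, had 89.1 in OEPs against 463 in the PPR and fell 5.20-fold. Among members below the levels, PITX1, an oral ectoderm gene, had 9.14 in OEPs against 164 in the PPR, and FEZF2, a forebrain gene, had 0 reads in OEPs and 284 in the PPR. SIX6, an eye and pituitary gene, had 70.8 in OEPs against 3.06 in the PPR, and KAL1, an extracellular protein of the olfactory region, had 50.3 in OEPs against 255 in the PPR.

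Genes of the epiblast and early ectoderm were likewise lower. Of 19 with counts 14 passed, 8 fell and 3 rose, with a median log2 change of -0.97. NANOG, a homeobox gene of pluripotent cells, had 158 in OEPs against 1936 in the PPR and fell 12.3-fold (9.68 to 15.8). PRDM14, a zinc finger gene of pluripotent and germ cells in mammals, fell 49.6-fold (24.0 to 124), with 16.0 in OEPs against 793 in the PPR. POUV, the chick relative of the mammalian pluripotency gene OCT4, had 21193 in OEPs against 41283 in the PPR, a fall of 1.95-fold. KLF5 fell 3.02-fold, with 2605 in OEPs against 7857 in the PPR, and the de novo DNA methyltransferase DNMT3B fell 1.54-fold, with 46214 in OEPs against 71100.3 in the PPR, which the length correction took within 1.5-fold. Its relative DNMT3A had 37761 in OEPs against 42382 in the PPR.

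ZIC2, a zinc finger factor of the neural plate and its border, had 503 in OEPs against 3294 in the PPR, 6.55-fold (5.73 to 7.53) lower. Its relative ZIC1 had 13.7 in OEPs against 334 in the PPR, below the levels. The RNA-binding regulator TRIM71 fell 1.78-fold, while LIN28B had 20871 in OEPs against 16404 in the PPR and was past the rule only after the length correction. The 3 that rose were SOX11 (6725 in OEPs against 2425 in the PPR, 2.77-fold, interval 2.65 to 2.90), BERT (583 in OEPs against 313 in the PPR) and CHURC1. CHURC1 had 3695 in OEPs against 1471 in the PPR, but its effective length was 44.7 bases, and its log2 change was -1.16 against all loci nearest in length and 0.997 against those with a symbol.

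In the FGF pathway, 3 ligands and 6 feedback and target genes rose while 3 of 4 tested receptors fell. Of 32 members with counts 19 passed the levels, 9 rose and 4 fell, with a median log2 change of 0.71. As shares of those tested these were 47.4% and 21.1%, against 13.7% and 19.9% of all tested loci with a symbol. Among 13 ligands, FGF8 had 1136 in OEPs against 41.6 in the PPR, a rise of 27.3-fold (21.9 to 34.4), and FGF16 had 583 in OEPs against 14.4 in the PPR, a rise of 40.3-fold (28.0 to 59.9). FGF1 rose 3.90-fold, with 377 in OEPs against 96.7 in the PPR, and FGF13, an intracellular relative that is not secreted, fell 1.83-fold. The ligands FGF3, FGF10 and FGF19, known as inducers of the otic placode from neighbouring tissue, stayed below the levels in the ectoderm, with 187 in OEPs against 21.0 in the PPR for FGF3, 181 in OEPs against 23.2 in the PPR for FGF10 and 197 in OEPs against 29.3 in the PPR for FGF19.

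Of the 4 tested receptors 3 fell. FGFR3 had 3555 in OEPs against 28249.8 in the PPR, a fall of 7.95-fold (7.56 to 8.36), FGFR2 had 4293 in OEPs against 26657 in the PPR, a fall of 6.21-fold (5.93 to 6.50), and FGFR4 had 2390.1 in OEPs against 7158 in the PPR, a fall of 2.99-fold (2.81 to 3.19). FGFR1 stayed level, with 32929 in OEPs against 33799.6 in the PPR. Per length, OEPs had 265 RPKM of FGFR1 against 11.1 to 20.3 RPKM of the other 3 receptors, and the PPR had 224 RPKM of FGFR1 against 55.8 to 93.0 RPKM of the others. Of 14 feedback inhibitors and target genes 10 passed, 6 rose and 0 fell. IL17RD, a membrane antagonist of FGF receptors, rose 4.09-fold (3.96 to 4.23), with 14841 in OEPs against 3628 in the PPR. SPRED1, an inhibitor of the RAS-MAPK route, rose 2.27-fold, its relative SPRED2 1.56-fold and the MAP kinase phosphatase DUSP4 1.75-fold, the last without a call after the length correction. SPRY4 had 73.1 in OEPs against 5.25 in the PPR, below the levels.

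In the WNT pathway 31 of 53 members passed, 11 rose and 6 fell, with a median log2 change of 0.11. These were 35.5% and 19.4% of those tested, against 13.7% and 19.9% of all tested loci with a symbol. The share that fell was thus near that of all such loci. WNT5A, a ligand mostly linked with non-canonical signalling, had 2509 in OEPs against 308 in the PPR, a rise of 8.14-fold (7.40 to 8.96), and WNT5B had 1094 in OEPs against 348 in the PPR, a rise of 3.15-fold (2.80 to 3.53). ROR2, a receptor for WNT5A, rose 1.94-fold (4839.6 in OEPs against 2499 in the PPR), while its relative ROR1 fell 2.67-fold (4485 in OEPs against 11973 in the PPR). The frizzled receptor FZD2 rose 2.74-fold (2.51 to 2.98), FZD8 2.29-fold and FZD7 1.92-fold (40723 in OEPs against 21188 in the PPR). The co-receptors of the canonical route went the other way: LRP6 fell 2.93-fold (2.61 to 3.29), with 717 in OEPs against 2102 in the PPR, and LRP5 fell 1.75-fold, with 2047 in OEPs against 3575 in the PPR, and LRP5 lost its call after the length correction. CTNNB1, which encodes beta-catenin, had 64251 in OEPs against 58922 in the PPR.

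Of the WNT target genes, SP5, a direct target of the canonical route, rose 4.67-fold (4.50 to 4.85), with 12362 in OEPs against 2646 in the PPR, and NOTUM, a feedback enzyme that inactivates WNT ligands, rose 1.96-fold, with 2683 in OEPs against 1366 in the PPR. AXIN2, another canonical target, had 5048 in OEPs against 3662 in the PPR and was past the rule only after the length correction. Of the secreted modulators 3 fell. RSPO3, which enhances WNT signals, had 112 in OEPs against 2284 in the PPR, a fall of 20.4-fold (15.4 to 27.6), the inhibitor FRZB had 4968 in OEPs against 20323 in the PPR, a fall of 4.09-fold (3.92 to 4.27), and the inhibitor SFRP2 had 6332 in OEPs against 17041 in the PPR, a fall of 2.69-fold. SFRP1 stayed within 1.5-fold at 13488 in OEPs against 15043 in the PPR.

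The BMP and TGF-beta pathway divided by role. Of 47 members 33 passed, 6 rose and 12 fell, with a median log2 change of -0.30. Risers were 18.2% and fallers 36.4% of those tested, against 13.7% and 19.9% of all tested loci with a symbol. All 4 ligands that changed rose: BMP7 had 11642 in OEPs against 4191 in the PPR and rose 2.78-fold (2.68 to 2.87), BMP5 rose 3.26-fold (2.90 to 3.65, with 1099 in OEPs against 337 in the PPR), BMP2 rose 3.32-fold (2.89 to 3.80, with 795 in OEPs against 239.8 in the PPR) and TGFB3 rose 2.01-fold (4463 in OEPs against 2221 in the PPR). BMP4, a ligand of the neural plate border, had 5164 in OEPs against 5589.6 in the PPR. Among receptors and SMAD effectors 2 rose and 8 fell, and after the correction among loci with a symbol 2 rose and 6 fell. BMPR1A had 777 in OEPs against 2395 in the PPR, a fall of 3.08-fold (2.76 to 3.45), and BMPR1B had 639.8 in OEPs against 298 in the PPR, a rise of 2.15-fold (1.86 to 2.47).

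The 3 SMADs that carry the BMP signal all fell. SMAD9 fell 3.45-fold (117 in OEPs against 402 in the PPR) and SMAD5 2.21-fold (1881 in OEPs against 4159 in the PPR). SMAD1 fell 1.66-fold (3018 in OEPs against 5008 in the PPR). In the TGF-beta branch, SMAD2 passed narrowly at 1.51-fold and SMAD3 had 1058 in OEPs against 1067 in the PPR. The ubiquitin ligases SMURF1 and SMURF2, which remove SMADs, fell 2.35-fold and 1.94-fold. No inhibitor or target gene rose and 4 fell. BMPER, a secreted modulator, had 153 in OEPs against 1623 in the PPR, a fall of 10.6-fold (8.33 to 13.7). FST, the secreted antagonist follistatin, had 299 in OEPs against 2966 in the PPR, a fall of 9.91-fold (8.34 to 11.9). BAMBI, a decoy receptor, fell 3.06-fold (813 in OEPs against 2492 in the PPR), and ID2, a BMP target that blocks bHLH factors, fell 2.77-fold (2.67 to 2.89, with 6119 in OEPs against 16970.5 in the PPR). ID3, another BMP target, had 3912 in OEPs against 4376 in the PPR.

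In the Notch pathway 33 of 37 members passed, 13 rose and 8 fell, with a median log2 change of 0.13. These were 39.4% and 24.2% of those tested, against 13.7% and 19.9% of all tested loci with a symbol. The rise was most even in the target genes, of which 4 of 7 rose and 0 fell. HEY1 had 8077 in OEPs against 868 in the PPR, a rise of 9.30-fold (8.80 to 9.83), HEYL had 441 in OEPs against 26.7 in the PPR, a rise of 16.5-fold (12.3 to 22.4), and HES1 had 1855 in OEPs against 1068 in the PPR, a rise of 1.74-fold. NRARP, a feedback inhibitor, rose 2.37-fold at an effective length of 123 bases, and against all loci nearest in length its log2 change was -0.06. HES4 had 1785 in OEPs against 1690.2 in the PPR.

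Of the ligands, JAG1 had 5013 in OEPs against 1098 in the PPR, a rise of 4.57-fold (4.31 to 4.84), and JAG2 had 4531 in OEPs against 2883 in the PPR, a rise of 1.57-fold. DLL1 had 2228 in OEPs against 1545 in the PPR, within 1.5-fold. DTX1, a ubiquitin ligase of the deltex family, had 441 in OEPs against 18.4 in the PPR, a rise of 24.0-fold (17.1 to 34.3). The receptor NOTCH2 fell 1.64-fold (9773 in OEPs against 16005 in the PPR) and lost its call after the length correction, and NOTCH1 had 6131 in OEPs against 8351 in the PPR. The DNA-binding effector RBPJ had 338 in OEPs against 802 in the PPR, a fall of 2.37-fold (2.0 to 2.82), and its co-activator MAML2 had 414 in OEPs against 1469.6 in the PPR, a fall of 3.55-fold (3.06 to 4.15). DNER, a transmembrane Notch ligand, fell 3.41-fold (3.02 to 3.86), with 638 in OEPs against 2172 in the PPR, and MIB1, which drives ligand endocytosis, fell 2.29-fold, with 5255 in OEPs against 12022 in the PPR.

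**Figure D3:**
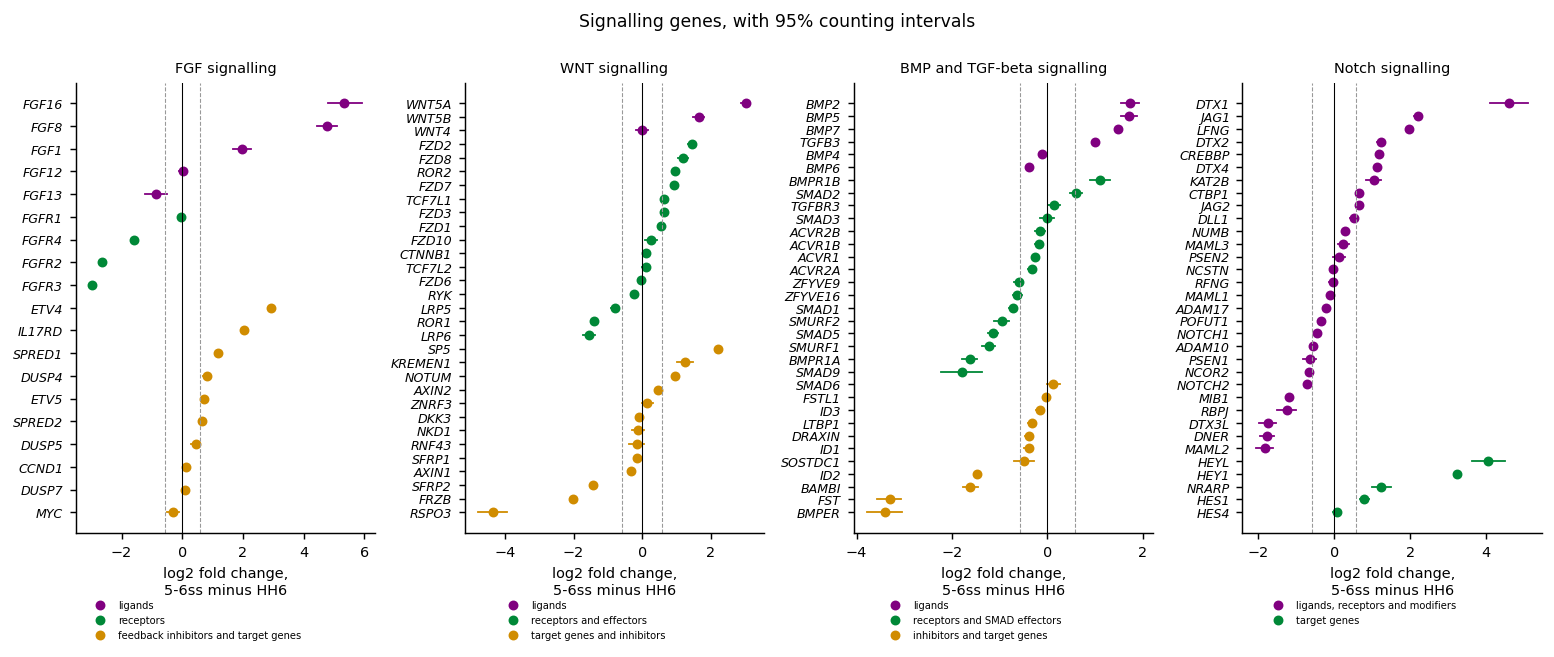
Log2 fold change (5-6ss OEPs minus HH6 PPR) of the tested members of 4 signalling lists, coloured by role, with lines for the 95% counting interval and dashed lines at 1.5-fold. FGF8 and FGF16 lie at the right end and FGFR2, FGFR3 and FGFR4 at the left, and BMP2, BMP5, BMP7 and TGFB3 lie right of 0 with SMAD1, SMAD5 and SMAD9 left of it.

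Of 21 retinoic acid pathway members 11 passed, 2 rose and 2 fell, shares close to those of all loci with a symbol. CYP26A1, which degrades retinoic acid, had 1088 in OEPs against 14858 in the PPR, a fall of 13.7-fold (12.5 to 15.0), while CYP26C1, another of these enzymes, had 14199 in OEPs against 10899 in the PPR. CRABP2, a carrier of retinoic acid in the cytoplasm, had 17839 in OEPs against 2675 in the PPR, a rise of 6.67-fold (6.45 to 6.90), and DHRS3, a reductase that limits retinal, had 15926 in OEPs against 3434 in the PPR, a rise of 4.64-fold (4.49 to 4.79). NRIP1, a nuclear receptor co-repressor, fell 3.26-fold. ALDH1A2, which makes retinoic acid, had 487 in OEPs against 227 in the PPR and ALDH1A1 70.8 in OEPs against 0.875 in the PPR, both below the levels.

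Of 33 HOX and CDX genes 2 passed the levels and both rose, while 31 lay below them. HOXA2 had 1044 in OEPs against 231 in the PPR, a rise of 4.52-fold (3.98 to 5.13). HOXA2 lay below the levels in the PPR and passed only through OEPs, so it could be called only as a rise. HOXA3 had 308 in OEPs against 84.5 in the PPR, below the RPKM level, and HOXB3 had 17 reads in OEPs and 10 in the PPR. In the Hedgehog list 11 of 15 passed, 2 rose (18.2% of those tested) and 3 fell (27.3%). The shares of all tested loci with a symbol were 13.7% and 19.9%. CDON, a co-receptor, rose 3.04-fold (2.96 to 3.11, with 23219.9 in OEPs against 7646 in the PPR), and GLI3, the main transcriptional repressor, rose 1.81-fold (4611 in OEPs against 2551 in the PPR). The co-receptor BOC fell 1.99-fold, and the target genes PTCH1 and GLI1 fell 2.06-fold (1010.0 in OEPs against 2080.1 in the PPR) and 1.53-fold (249 in OEPs against 382 in the PPR). GLI1 was close to the threshold, with an interval of 1.26 to 1.89, and lost its call after the length correction, and SHH had 11.4 in OEPs against 12.7 in the PPR.

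Epithelial genes changed by class. Of 19 cadherins and protocadherins 11 passed, 3 rose and 7 fell. CDH3, P-cadherin, had 188270.0 in OEPs against 115200.0 in the PPR and rose 1.63-fold, and PCDH17 rose 2.56-fold (1453 in OEPs against 568 in the PPR) and PCDH1 1.59-fold. CDH13 had 187 in OEPs against 2813 in the PPR, a fall of 15.0-fold (12.1 to 18.9), CDH8 had 59.4 in OEPs against 511 in the PPR, a fall of 8.60-fold (5.84 to 13.2), and CDH7 had 244 in OEPs against 1342 in the PPR, a fall of 5.49-fold (4.53 to 6.72). CDH2, N-cadherin of neural tissue, fell 3.45-fold (3.15 to 3.79), with 1136 in OEPs against 3921 in the PPR, and CDH11 fell 2.62-fold, with 2616 in OEPs against 6863 in the PPR.

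Of 42 keratin, claudin, desmosome and epithelial factor genes 26 passed, 9 rose and 5 fell. KRT8 and KRT18, the keratin pair of simple epithelia, rose 2.09-fold (49746 in OEPs against 23809 in the PPR) and 2.16-fold (6343 in OEPs against 2938 in the PPR), and KRT19 had 38632 in OEPs against 29126 in the PPR. The tight junction gene CLDN3 had 10744 in OEPs against 2633 in the PPR, a rise of 4.08-fold (3.93 to 4.24), OCLN rose 2.20-fold, and CLDN1 had 85599.5 in OEPs against 94129.5 in the PPR. CLDN4 and KRT14 rose 5.12-fold and 2.93-fold by counts, but their deposited RPKM gave log2 changes of -0.24 and -0.19. PERP, of the desmosome, rose 4.12-fold (3.53 to 4.81), and plakophilins PKP2 and PKP3 fell 2.18-fold and 1.97-fold. All 3 grainyhead factors, regulators of surface epithelium, fell: GRHL3 3.14-fold (2.78 to 3.56, with 633 in OEPs against 1988 in the PPR), GRHL2 1.81-fold (2150.2 in OEPs against 3888 in the PPR) and GRHL1 1.74-fold (1047 in OEPs against 1817 in the PPR).

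Basement membrane and integrin genes were more often lower, but this list depended on length. Of 71 members 43 passed, 8 rose and 14 fell, and after the correction among loci with a symbol 13 rose and 8 fell. ITGB3, an integrin beta subunit, rose 6.67-fold (6.44 to 6.91), with 16619 in OEPs against 2491 in the PPR, while the alpha subunits ITGA6 and ITGA4 fell 4.05-fold (3.82 to 4.30) and 2.38-fold (2.26 to 2.50), with 2680.3 in OEPs against 10854 in the PPR and 3836 in OEPs against 9126 in the PPR. The type IV collagen genes COL4A1 and COL4A2 fell 3.11-fold (1481 in OEPs against 4598 in the PPR) and 2.05-fold (2347 in OEPs against 4805 in the PPR). COL2A1, the fibrillar collagen of cartilage and of embryonic basement membranes, rose 2.05-fold (34597 in OEPs against 16896 in the PPR), and TNC, tenascin C, rose 2.61-fold (1485 in OEPs against 568 in the PPR). SPON1, a secreted matrix protein, fell 3.58-fold (3.44 to 3.73, with 5637 in OEPs against 20174 in the PPR). FN1, fibronectin, had 183442 in OEPs against 286019 in the PPR and fell 1.56-fold, a call that the correction removed.

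Chromatin regulators showed the same dependence. Of 71 members 67 passed, 8 rose and 24 fell, against 10 that rose and 10 that fell after the correction among loci with a symbol. Of the DNA demethylation enzymes, which kept their calls, TET1 had 674 in OEPs against 2686 in the PPR, a fall of 3.98-fold (3.54 to 4.49), and TET2 had 366 in OEPs against 1393 in the PPR, a fall of 3.81-fold (3.25 to 4.49), while TET3 rose 1.62-fold (6142 in OEPs against 3781 in the PPR). The class II histone deacetylases HDAC9 and HDAC4 also fell, HDAC9 3.28-fold (2.70 to 4.03, with 242 in OEPs against 795 in the PPR) and HDAC4 3.02-fold (2.66 to 3.45, with 562 in OEPs against 1698 in the PPR), and HDAC7 rose 1.55-fold (8377 in OEPs against 5417 in the PPR). The acetyltransferase CREBBP rose 2.25-fold (2.17 to 2.33, with 10573 in OEPs against 4705 in the PPR), and its paralogue EP300 had 11576 in OEPs against 11835 in the PPR. BRD3, which binds acetylated histones, rose 2.65-fold, and BAZ1A, a remodelling subunit, 2.55-fold. Of 12 histone genes 6 passed, 5 rose and 0 fell, among them the variants H2AFV (32348 in OEPs against 11393 in the PPR) and H2AFZ (30532 in OEPs against 18967 in the PPR), the second without a call after the length correction. Histone genes have near-identical copies between which the counting could split reads.

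Ribosomal and respiratory chain lists had medians near 0 before the length correction. After the correction among loci with a symbol, the medians of tested members were -0.27 for ribosomal and -0.13 for respiratory chain genes. Against all loci nearest in length they were -0.40 and -0.24. Of 67 cytosolic ribosomal protein genes 64 passed, 5 rose and 1 fell, with a median log2 change of -0.04. Of 56 respiratory chain genes all passed, 5 rose and 2 fell, with a median of -0.03, and after the correction among loci with a symbol 4 rose and 7 fell. The ribosomal proteins are short (median effective length 559 bases), and after the correction among loci with a symbol 2 rose and 7 fell. Of 62 spliceosome genes 7 rose (11.3%) and 3 fell (4.8%), below the 13.7% and 19.9% of all tested loci with a symbol. The falls were those of THOC2, DDX46 and PRPF4B, all longer than 2000 bases. DDX46 and PRPF4B lost their calls after the correction among loci with a symbol. Of 53 cell cycle genes 5 rose and 9 fell, which is 9.6% and 17.3% of those tested and also below these shares. After the same correction 8 rose and 5 fell. MYCN (13118 in OEPs against 6906 in the PPR) and MYCL1 (6974 in OEPs against 3539 in the PPR), relatives of MYC, rose 1.90-fold and 1.97-fold, and CCND2, a D-type cyclin, fell 2.84-fold (2.34 to 3.48, with 254 in OEPs against 721 in the PPR) while CCND1 had 6238 in OEPs against 5779.5 in the PPR and CCND3 rose 1.62-fold. PCNA, a replication clamp, had 24792 in OEPs against 21680.4 in the PPR.

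Metabolic genes changed in a few enzymes. Of 22 cholesterol synthesis genes 21 passed, 5 rose (23.8% of those tested) and 1 fell (4.8%). The shares of all tested loci with a symbol were 13.7% and 19.9%. The mevalonate pathway enzymes PMVK and MVD rose 2.74-fold (2970.5 in OEPs against 1082 in the PPR) and 2.27-fold (13129 in OEPs against 5793 in the PPR). CYP51A1 rose 1.77-fold, SC5D 1.71-fold and the regulator SREBF2 1.57-fold (22537 in OEPs against 14327 in the PPR). LBR, a nuclear envelope protein with sterol reductase activity, fell 1.97-fold. Of 24 glucose uptake and glycolysis genes 20 passed, 3 rose (15% of those tested) and 4 fell (20%). These shares were close to the 13.7% and 19.9% of all tested loci with a symbol. LDHA, which makes lactate, fell 2.68-fold (2.50 to 2.87, with 2038 in OEPs against 5463 in the PPR), the glucose transporter SLC2A1 fell 2.01-fold (3900.4 in OEPs against 7822 in the PPR), and the pyruvate dehydrogenase kinases PDK1 and PDK3 fell 1.81-fold and 1.61-fold. PGAM1 and HK2, enzymes of glycolysis, rose 2.29-fold and 1.92-fold, and GAPDH had 222197 in OEPs against 238361 in the PPR.

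Of 41 guidance and Eph genes 33 passed, 9 rose (27.3% of those tested) and 12 fell (36.4%). The shares of all tested loci with a symbol were 13.7% and 19.9%. SEMA3D and SEMA3A, secreted semaphorins, moved in opposite directions: SEMA3D had 2765 in OEPs against 266 in the PPR, a rise of 10.4-fold (9.42 to 11.5), and SEMA3A had 2150.2 in OEPs against 9373 in the PPR, a fall of 4.36-fold (4.08 to 4.66). Their neuropilin receptors did too, NRP1 with 1264 in OEPs against 459.5 in the PPR, a rise of 2.75-fold (2.48 to 3.05), and NRP2 with 610.1 in OEPs against 1839 in the PPR, a fall of 3.01-fold (2.66 to 3.42). The ligand EFNB2 rose 2.45-fold (2.40 to 2.50), with 32568 in OEPs against 13295 in the PPR, and ROBO1, a receptor for SLIT proteins, rose 2.25-fold, while the receptors EPHA5, UNC5A and CXCR4 fell 2.87-fold, 2.75-fold and 2.58-fold. SEMA5A fell 2.18-fold by counts, but its deposited RPKM gave a log2 change of 0.20.

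**Figure D4:**
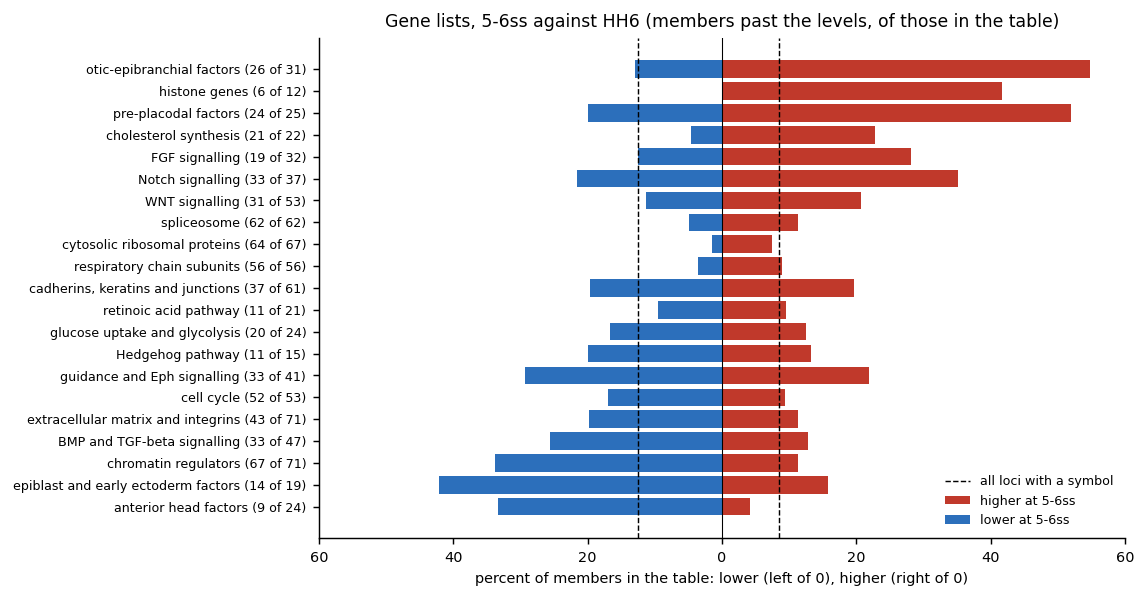
Percent of each gene list's members in the table that rose (red, right of 0) or fell (blue, left of 0) at 5-6ss against HH6, with the number past the expression levels and the number in the table in brackets; dashed lines give the shares over all 13118 loci with a symbol (8.57% rose, 12.4% fell). Otic-epibranchial and pre-placodal factors reach furthest right, and epiblast and anterior head factors and chromatin regulators furthest left.

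Across all genes with a symbol and a length of 1000 bases or more, the 12 that rose most, led by PAX2, included RIPPLY3, a co-repressor of TBX factors in pharyngeal and placodal ectoderm (985 in OEPs against 27.1 in the PPR, 36.3-fold, interval 27.8 to 48.2), MMP2, a gelatinase that cuts basement membrane (1684 in OEPs against 74.0 in the PPR, 22.8-fold, interval 19.2 to 27.1), TBX22, a T-box gene of the palate in mammals (749 in OEPs against 57.8 in the PPR, 13.0-fold, interval 10.6 to 16.0), and APCDD1, a membrane inhibitor of WNT signalling (1960.5 in OEPs against 173 in the PPR, 11.3-fold, interval 10.1 to 12.8). JSC had 25103 in OEPs against 1049.9 in the PPR, and PLEKHS1 had 713 in OEPs against 44.2 in the PPR. ACTG2, a smooth muscle actin, had 523 in OEPs against 36.8 in the PPR, and reads from other actin genes may be shared with it. LMO2, a co-factor of blood and vessel development, had 1417 in OEPs against 107 in the PPR, a rise of 13.3-fold (11.4 to 15.4), beside the 28.8 CPM in OEPs and 9.40 CPM in the PPR of the blood and vessel list without it and CLDN5. HMGA1, an architectural chromatin protein, had 3626 in OEPs against 62.6 in the PPR, but its effective length came out at 3.58 bases, too short for a transcript. Of the other short genes, TTR, a carrier protein made by liver and yolk sac, had 852 in OEPs against 20.1 in the PPR, a rise of 42.3-fold (31.1 to 58.8). APOA1, an endoderm apolipoprotein that is not among these short genes, rose 5.10-fold (4143 in OEPs against 812 in the PPR). Beside TTR and APOA1, the other 6 genes of the endoderm list summed to 5.88 CPM in OEPs and 13.3 CPM in the PPR. TTR and APOA1 had been left out of that sum for their large difference toward OEPs. Most of the 13.3 CPM was CXCR4, with 3.69 CPM in OEPs and 9.73 CPM in the PPR. The part of other tissues in the rises given here was not tested.

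Among the 12 that fell most were several neural and membrane genes. CNTNAP5, a neurexin-like adhesion protein, had 52.6 in OEPs against 1873 in the PPR, a fall of 35.6-fold (23.7 to 56.3). ATP8A2, a phospholipid flippase, had 11.4 in OEPs against 476 in the PPR, with only 5 reads in OEPs and 1087 in the PPR and so a wide interval of 17.8 to 128 around 41.6-fold. GLUR1/A, a glutamate receptor subunit, had 20.6 in OEPs against 775 in the PPR, a fall of 37.7-fold (19.8 to 82.5). By deposited RPKM the log2 changes were less negative, -4.05 for ATP8A2 (-5.38 by counts) and -3.96 for GLUR1/A (-5.24 by counts). Of the transporters, SLC5A1, a sodium-glucose transporter, had 142 in OEPs against 5046 in the PPR, a fall of 35.6-fold (27.8 to 46.5), and SLC34A2, a sodium-phosphate transporter, had 68.5 in OEPs against 1334 in the PPR, a fall of 19.5-fold (13.6 to 28.9). SPAM1, a hyaluronidase, fell 57.2-fold and CCDC141 50.6-fold, while FAM5B had 59.4 in OEPs against 2084 in the PPR and BPIFB8 404 in OEPs against 7726 in the PPR.

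The later libraries place some of these levels, here on size factors over all 5 libraries and with HH6, 5-6ss, 8-9ss and 11-12ss in order. SOX8 had 260.0, 7407, 9592 and 10158 normalized counts, so its 5-6ss level was close to the later ones. GBX2 had 747, 16282, 13473 and 5601 and was highest at 5-6ss. FGF8 had 32.8, 901, 2749.7 and 2019.7. Of the genes that fell, OTX2 had 10617, 2109, 344 and 505, and FGFR3 had 22286, 2822, 2098 and 1945.

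**Figure D5:**
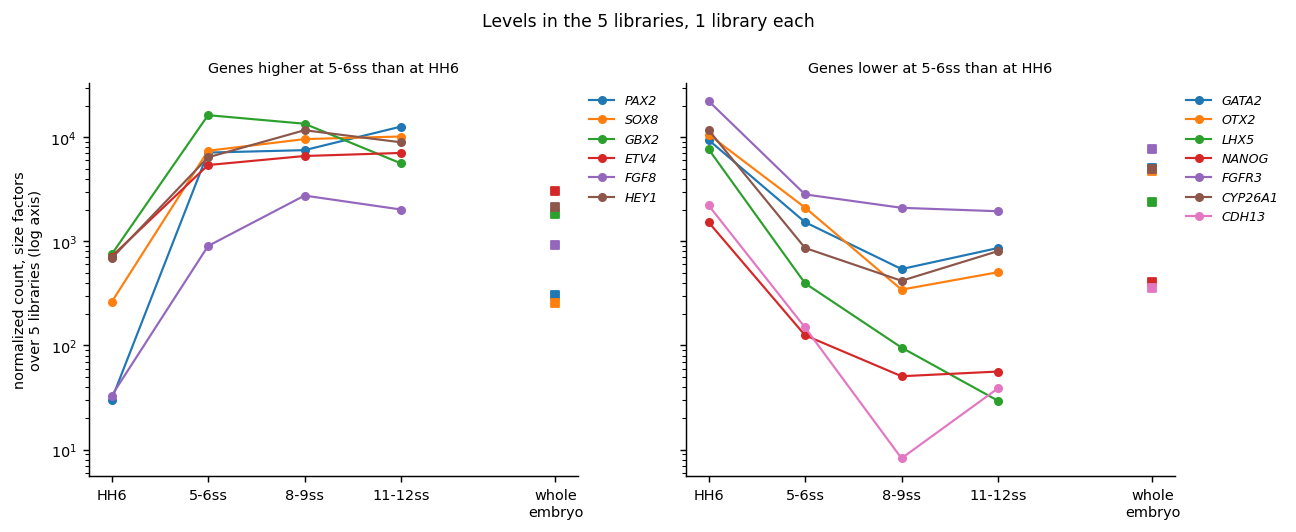
Normalized counts (log axis, size factors over 5 libraries) of 6 genes that rose and 7 that fell at 5-6ss, by stage from HH6 to 11-12ss, with the 3ss whole embryo as squares; each point is 1 library. PAX2 goes with its dissection, and GBX2 is highest at 5-6ss (16282 normalized counts).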

How the data were processed

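Poly(A) RNA of dissected tissue, pooled within each stage, was sequenced as 1 library per condition. The authors aligned reads with TopHat2 (v2.0.7) to Galgal4, merged Cufflinks (v2.1.1) assemblies, and deposited raw counts per merged locus (easyRNAseq v2.1.0) and RPKM values (Cuffdiff v2.1.1). Reads were single or paired, and which library had which is not given in the sources used here. Duplicates were not told apart.

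Counts of the 2 libraries were scaled by median-of-ratios size factors (0.438 for 5-6ss OEPs, 2.28 for the HH6 PPR). Intervals are exact (Clopper-Pearson, 95%) for the 2 counts. A count under 3 was raised to 3 in a fold. Effective length came from the 3 libraries not compared. Members of lists were matched by symbol, and medians of lists are over members with a mean normalized count of 10 or more. The members and lists were chosen with earlier results of these data known. Genes were named first by rule. The rule took every tested member of the pre-placodal, otic-epibranchial, epibranchial and anterior head lists, and up to 4 risers and 4 fallers of each other list. It also took the 12 largest changes each way at 1000 bases or more and the 5 largest rises under 400 bases. Some members of these lists are counted but not reported here by name. In several of the other lists, more members that rose or fell are named than the rule took. Those further members were chosen after their values were seen. So were partners given beside them that did not pass, or lie below the levels. A planned check against protein length was not run. Alternatives were other size factors (edgeR 4.0.16 TMM, all libraries, total counts, long loci), RPKM folds, thresholds, thinning and length corrections. Scripts were tested on simulated data (Python 3.11.15, pandas 2.3.3, scipy 1.17.1, R 4.3.3). No coordinates or sequences are given.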

Additional observations from a re-analysis of the deposited data

How the results depend on the processing

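The 2 counts of calls (1665 higher and 1746 lower in OEPs) gave 30 values, 1 for each count under each alternative setting. Within 1.5 times the main count lay 24 of these 30 values. The exceptions were no count threshold (2542 higher), no expression threshold (4307 higher and 3339 lower), a fold over 2 (860 higher and 778 lower) and loci of effective length 1000 bases or more (890 higher). Size factors from loci of 1000 bases or more shifted every log2 change by 0.12 and gave 2043 higher and 1374 lower, so that 59.8% of calls were higher, against 48.8% in the main setting. Folds of the deposited RPKM gave 1682 higher and 1311 lower. Of these, 1229 of the higher and 1162 of the lower were also called in the main setting. The totals compared here do not show such changes in which loci were called.

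Of 2400 values of 300 called or top genes, 1608 stayed inside the counting interval, 784 left it and 8 changed sign. With deposited RPKM the log2 change was 0.42 for BPTF, -0.24 for CLDN4, 0.20 for SEMA5A, -0.19 for KRT14, 2.20 for INO80 and 0.68 for BAZ2B. With the correction over all loci near in length it was -0.058 for NRARP and -1.16 for CHURC1. The median of the cardiac and lateral mesoderm markers was -0.011 over its 5 members of 1000 bases or more. The cause of these changes was not tested. No paired analysis was possible because each condition had 1 library. Depth limits OEPs more than the PPR, which had 5.10 times as many counts.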

Other observations

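Some epithelial genes with a large difference in counts stood outside the calls because their deposited RPKM was under 4 in both libraries. KRT5, a basal keratin, had 702 reads in OEPs and 6 in the PPR, and KRT75 had 708 reads in OEPs and 47 in the PPR. CLDN5, a claudin of vessels and of some epithelia, had 527 reads in OEPs and 4 in the PPR, 1204 normalized counts in OEPs against 1.75 in the PPR, and on size factors over 5 libraries it had 60.2 in the whole embryo, 858 at 8-9ss and 875 at 11-12ss. The effective lengths behind these RPKM values were 21483 bases for KRT5 and 299717 bases for KRT75, so their RPKM cannot be read as a level per transcript. They were chosen after their values were seen.

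Counts and deposited RPKM differed by more than 2-fold in their fold change at 307 tested loci, and at 87 called loci they lay on opposite sides of 1. INO80 was an extreme case, with 48.5 RPKM in OEPs and 10.6 RPKM in the PPR but 1981 in OEPs against 3815 in the PPR in normalized counts.

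Loci with no gene symbol accounted for 541 of the 1665 that rose and 113 of the 1746 that fell. Those with an Ensembl identifier alone had 225 higher and 88 lower of 606 tested, and those with other identifiers 314 higher and 18 lower of 405 tested, at a median effective length of 363 bases. Among 605 loci carrying a microRNA identifier 23 passed the levels, of which 2 rose and 7 fell, and these are poly(A) transcripts counted over the locus, not mature microRNAs.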
